A study of Mus musculus with 10 samples.

Results

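Aminoacyl tRNA synthetases join each amino acid to its tRNA, and they were followed here as 39 genes listed by symbol: 20 cytosolic enzymes, 16 mitochondrial enzymes whose symbols end in 2, and 3 genes for non-enzymatic scaffold proteins of the complex that holds several cytosolic enzymes together (Aimp1, Aimp2 and Eef1e1). All 39 were found among the 17658 genes of the table, and all 39 passed the low-level filter (mean FPKM not under 1), as did 10225 genes in total. FPKM is a level per kilobase of transcript and per fixed number of sequenced fragments, so it can be set beside that of another gene.

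The study examined how B cells of wild-type mice (Nr4a1+/+) and of mice labelled Nr4a1-/- respond to anti-IgM, an antibody that cross-links the B cell antigen receptor. The mice were C57BL/6, all 10 weeks old, and B cells were taken from spleen and lymph nodes by magnetic negative selection. Each genotype gave 1 unstimulated library and 4 libraries, lettered A to D, of cells given anti-IgM at 10 µg/mL for 2 hours. Polyadenylated RNA was sequenced from a stranded kit. Nr4a1 encodes Nur77, a nuclear receptor induced by antigen receptor signals; the question was which genes induced in these cells differ with its genotype.

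Cells keep 2 sets of these enzymes, both encoded in the nucleus. The cytosolic set charges tRNAs for cytosolic ribosomes, and the mitochondrial set is imported to charge the tRNAs of the mitochondrial genome. Eprs charges both glutamate and proline, Farsa and Farsb are the subunits of 1 enzyme, and the products of Gars and Kars serve both compartments. Many cytosolic synthetase genes are known targets of ATF4, the transcription factor of the amino acid response, which binds CARE elements together with C/EBP partners, and many genes of biosynthesis are known targets of Myc, which binds E-boxes.

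The sequences below show where the CARE core lies in the promoters of 4 cytosolic enzymes that rose after anti-IgM. RefSeq promoter windows on GRCm38.p6, from 250 bases before to 50 bases after each start, matched 29 of the 39 members. The CARE core TGATGNAA, searched on both strands, lay in the windows of 5 of 12 matched cytosolic members (Aars, Gars, Iars, Tars and Yars), 0 of 14 mitochondrial members and 0 of 3 scaffold genes. It lay in 2.83% of the 7462 tested genes with a window and in 4.51% of the 27025 genes of the RefSeq table. Each line gives 30 bases around a match, 5′ to 3′ on the strand of the gene, with the match in capitals.
Gars, chr6:55037960-55037989, + strand: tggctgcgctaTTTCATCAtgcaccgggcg
Iars, chr13:49682126-49682155, + strand: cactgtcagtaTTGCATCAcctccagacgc
Tars, chr15:11399655-11399684, - strand: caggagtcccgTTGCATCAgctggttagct
Yars, chr4:129189895-129189924, + strand: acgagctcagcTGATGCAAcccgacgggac

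In Gars and Tars the match began 30 and 15 bases before the RefSeq start, and in Iars and Yars it lay just after the start. GENCODE begins Iars, Yars and Aars earlier, at chr13:49682100, chr4:129189760 and chr8:111033144, so their CARE matches lie inside those genes' spans. The E-box CACGTG lay in the windows of 4 of 12 cytosolic members (Aars, Farsb, Iars and Tars) and 1 of 14 mitochondrial members (Ears2), against 12.8% of tested genes. Eprs, Sars, Kars, Farsa and Dars also rose after anti-IgM (log2 change 0.31 to 1.33), and their windows held neither motif. The stretch of Iars below holds an E-box, in capitals. Qars, the cytosolic enzyme with the lowest change, and Yars2, the mitochondrial enzyme with the largest rise, are shown for contrast. The 100 bases before their RefSeq starts hold neither motif. In the GENCODE annotation Qars begins earlier, at chr9:108507706, so its stretch lies inside that gene's span. No E-box match overlapped a CARE match in these members.
Iars, chr13:49682042-49682081, + strand: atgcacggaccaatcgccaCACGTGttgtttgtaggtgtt
Qars, chr9:108507905-108508004, + strand: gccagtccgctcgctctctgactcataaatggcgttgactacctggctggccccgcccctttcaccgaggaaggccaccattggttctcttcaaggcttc
Yars2, chr16:16302865-16302964, + strand: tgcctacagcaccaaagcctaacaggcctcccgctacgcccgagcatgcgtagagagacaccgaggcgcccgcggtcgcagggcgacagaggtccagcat

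A match is a run of letters in the window, not a measured binding site, and no library here measured binding. The table had no window for Cars, Hars, Lars, Mars, Nars, Rars, Vars, Wars, Hars2 and Pars2.

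Before the results, the labels were checked on Nr4a1 itself. It stood at 126 FPKM (wild type) and 126 FPKM (labelled knockout) before stimulation. After anti-IgM it stood at 806, 744, 826 and 856 FPKM in wild type A to D and 713, 675, 760.0 and 660.2 FPKM in labelled knockout A to D. The libraries labelled knockout were lower by 0.20 on the log2 scale of the difference (limma, adjusted p = 0.043), the groups overlapped, and transcript from the gene was present in all of them, so the genotype labels could not be checked from this value. Genotype therefore means the label throughout. Levels are given for wild type before labelled knockout, and for stimulated libraries in the order A to D. The 7 B cell markers were all well expressed (summed 1716 to 4273 FPKM); 6 were lower and 1 higher after anti-IgM. Of the T cell markers only Lck exceeded 1 FPKM, and Cd3d, Cd3e, Cd3g, Cd4, Cd8a and Cd8b1 were all under 1 FPKM; Lck, which was higher in the labelled knockout after anti-IgM (64.4 to 66.9 against 43.7 to 48.1 FPKM), made up most of that list's sum of 18.9 to 67.7 FPKM. NK cell markers summed to at most 2.00 FPKM. Plasma cell markers, mostly Irf4, summed to 201 and 205 FPKM before and 1046 to 1191 FPKM after stimulation. Irf4 alone went from 124 and 115 FPKM to between 970 and 1113 FPKM. Prdm1 and Xbp1 were also called higher (log2 change 1.04 and 0.33). Sdc1 was called lower (-1.16), and Igj was not called (-0.35). Summed haemoglobin and other erythroid markers ranged from 7.88 to 123 FPKM, and myeloid markers from 24.5 to 141 FPKM, and their part in the results below was not tested. Fewer cells of a type and less RNA per cell cannot be told apart in such libraries. No label says whether the lettered libraries came from separate mice, so p-values measure the spread between these samples.

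After 2 hours of anti-IgM the cytosolic enzymes rose as a group. Of 20, 18 were higher and 2 were lower (limma on log2(FPKM + 1), adjusted p under 0.05), with a median log2 change of 1.15, and 12 rose by at least 1, which is a doubling on that scale. Of the 16 mitochondrial enzymes 5 were higher, 7 lower and 4 not called, with a median of -0.17, shares of 31.25% and 43.75% that are near those over all genes tested. Of the 3 scaffold genes, Aimp2 and Eef1e1 rose and Aimp1 was lower. Over all 39 members 25 were higher and 10 lower, where 31.2% of all genes tested were higher and 47.7% lower. By at least 1, 15 members were higher and 0 lower, where 7.94% and 12.4% of all genes tested were. Each genotype had 1 unstimulated library, so SEs and p-values of this comparison rest mostly on spread among the stimulated libraries. The unstimulated libraries were assumed to vary like the stimulated ones.

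**Figure D1:**
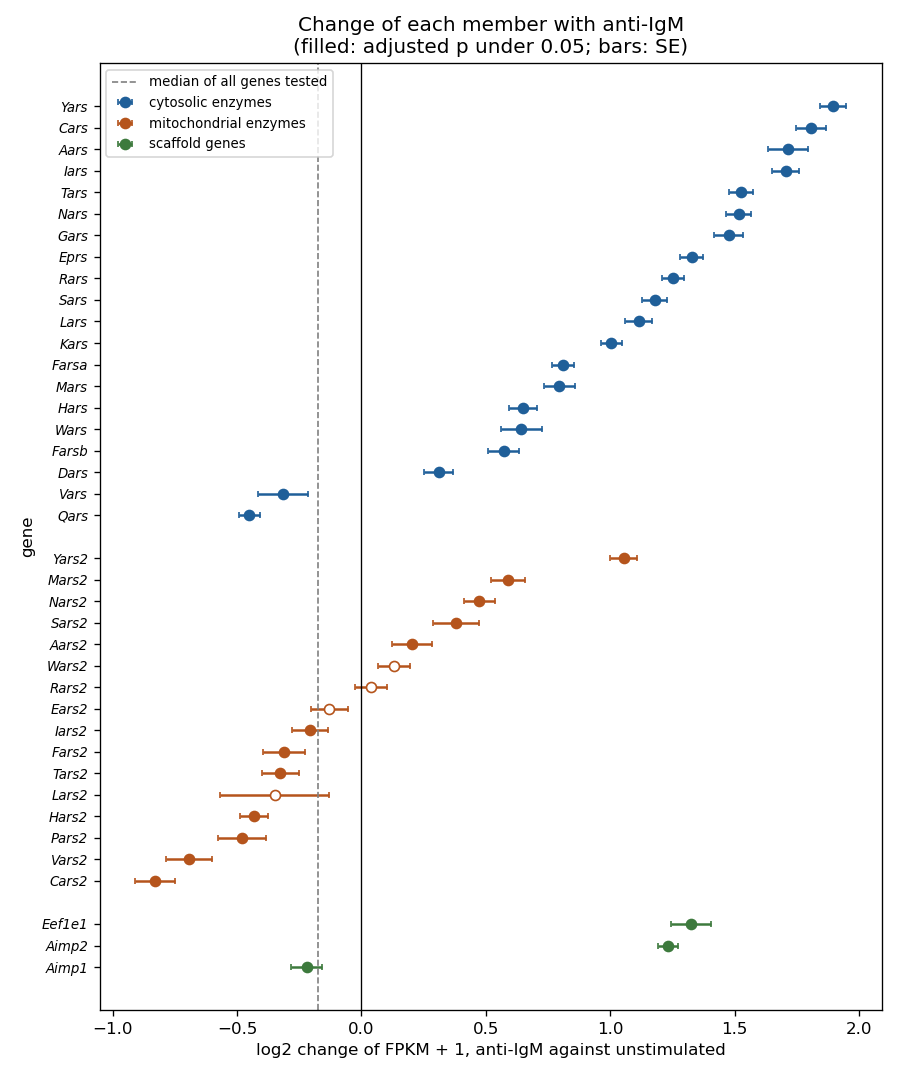
Log2 change of FPKM + 1 with anti-IgM (x axis) for each of the 39 members (y axis), with SE; filled points have adjusted p under 0.05, and the dashed line is the median of all genes tested, -0.17. The cytosolic enzymes lie mostly to the right of 0 and the mitochondrial enzymes on both sides of it.

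The median change of all genes tested was -0.17 on the deposited scale and -0.05, -0.02 and 0.01 after rescaling to TPM, by median of ratios and by quantiles, a shift of over 0.1. The calls over all genes tested were 39.2% higher and 38.8% lower by median of ratios. The summed FPKM was 674961 and 595500 in the unstimulated libraries and between 557214 and 571784 in the stimulated ones. The cytosolic median was 1.32, 1.32 and 1.065 on those 3 scales. The mitochondrial median of -0.17, close to that of all genes, was -0.02 and -0.01 on the first 2 and turned to 0.15 on the quantile scale. On each of the 3 other scales 18 cytosolic enzymes were again called higher, and the mitochondrial calls were 7 higher and 4 lower, 7 and 5, and 8 and 5.

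Among the cytosolic enzymes the tyrosine enzyme Yars rose most. It stood at 17.5 FPKM (wild type) and 21.1 FPKM (labelled knockout) before stimulation. After anti-IgM it stood at 78.1, 72.5, 71.1 and 70.7 FPKM in wild type A to D and 76.7, 75.0, 74.8 and 76.9 FPKM in labelled knockout A to D. The stimulated libraries lay far above both unstimulated ones, and the fitted log2 change was 1.90 ± 0.052 (SE), adjusted p = 1.36e-10. Cars, the cysteine enzyme, stood at 17.7 and 19.8 FPKM before stimulation, then at 73.6, 64.8, 62.9 and 66.2 FPKM in stimulated wild type and 70.6, 65.2, 68.3 and 73.4 FPKM in stimulated labelled knockout. Its log2 change was 1.81 ± 0.061 (SE), with no overlap between stimulated and unstimulated libraries. Aars, the alanine enzyme, stood at 22.3 and 30.7 FPKM before stimulation, then at 95.3, 84.8, 84.0 and 83.4 FPKM in stimulated wild type and 90.0, 86.5, 89.2 and 92.3 FPKM in stimulated labelled knockout. Its log2 change was 1.71 ± 0.080 (SE), and it was the library labelled knockout that was higher before stimulation.

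Iars, the isoleucine enzyme of the multisynthetase complex, stood at 35.9 and 41.7 FPKM before stimulation, then at 134, 125, 131 and 123 FPKM in stimulated wild type and 130.0, 124, 126 and 136 FPKM in stimulated labelled knockout. The log2 change was 1.71 ± 0.054 (SE), and the stimulated mean was 3.56-fold the unstimulated level in wild type and 3.10-fold in the labelled knockout. Tars, the threonine enzyme, stood at 46.5 and 44.4 FPKM before stimulation, then at 138, 128, 133 and 124 FPKM in stimulated wild type and 134, 129.8, 135 and 140.3 FPKM in stimulated labelled knockout, a log2 change of 1.52 ± 0.048 (SE). Nars, the asparagine enzyme and the highest cytosolic member in the mean of the stimulated libraries, stood at 73.4 and 73.0 FPKM before stimulation, then at 225, 199.9, 206 and 201 FPKM in stimulated wild type and 219.8, 209, 208 and 223 FPKM in stimulated labelled knockout, a log2 change of 1.52 ± 0.050 (SE). In none of the 3 did a stimulated library overlap the unstimulated ones.

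The other cytosolic enzymes that rose by at least 1 were Gars (1.48), Eprs (1.33), Rars (1.25), Sars (1.18), Lars (1.11) and Kars (1.004), the enzymes for glycine, glutamate and proline, arginine, serine, leucine and lysine. Farsa (0.81), Mars (0.80), Hars (0.65) and Wars (0.64) rose by less. Farsa and Farsb, the 2 subunits of the phenylalanine enzyme, rose by 0.81 ± 0.044 (SE) and 0.57 ± 0.062 (SE), and the difference between them was not tested. Farsb stood at 45.3 and 36.0 FPKM before stimulation, then at 62.4, 62.2, 63.0 and 57.8 FPKM in stimulated wild type and 59.7, 57.2, 60.2 and 62.2 FPKM in stimulated labelled knockout. Dars, the aspartate enzyme, stood at 72.9 and 58.6 FPKM before stimulation, then at 83.8, 86.7, 89.0 and 80.8 FPKM in stimulated wild type and 75.8, 73.4, 78.8 and 83.5 FPKM in stimulated labelled knockout, and rose by 0.31 ± 0.058 (SE), a call lost in 1 of 22 alternatives, the 4 libraries lettered A alone (adjusted p = 0.069; 6.87e-06 to 0.069 over the alternatives); it was 0.16 after quantile normalization.

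Qars and Vars went the other way. Qars, the glutamine enzyme, stood at 45.0 and 41.2 FPKM before stimulation, then at 33.9, 32.6, 33.0 and 32.1 FPKM in stimulated wild type and 28.5, 31.4, 29.3 and 29.4 FPKM in stimulated labelled knockout. Every stimulated library was below both unstimulated ones, and the log2 change was -0.45 ± 0.043 (SE), adjusted p = 2.16e-06, lower on all 4 scales (-0.51 to -0.28). Vars, the valine enzyme, stood at 56.5 and 80.5 FPKM before stimulation, then at 60.3, 54.2, 50.8 and 54.6 FPKM in stimulated wild type and 54.4, 54.9, 53.1 and 50.8 FPKM in stimulated labelled knockout. Its stimulated libraries overlapped the unstimulated wild-type one, and the log2 change of -0.31 ± 0.10 (SE) (adjusted p = 0.014) was lost in 5 of 22 alternatives: it shrank to -0.04 (adjusted p = 0.65) without the unstimulated library labelled knockout and was not called on the TPM (-0.15) or median-of-ratios (-0.14) scale. The plot of levels by library shows both beside the enzymes that rose.

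**Figure D2:**
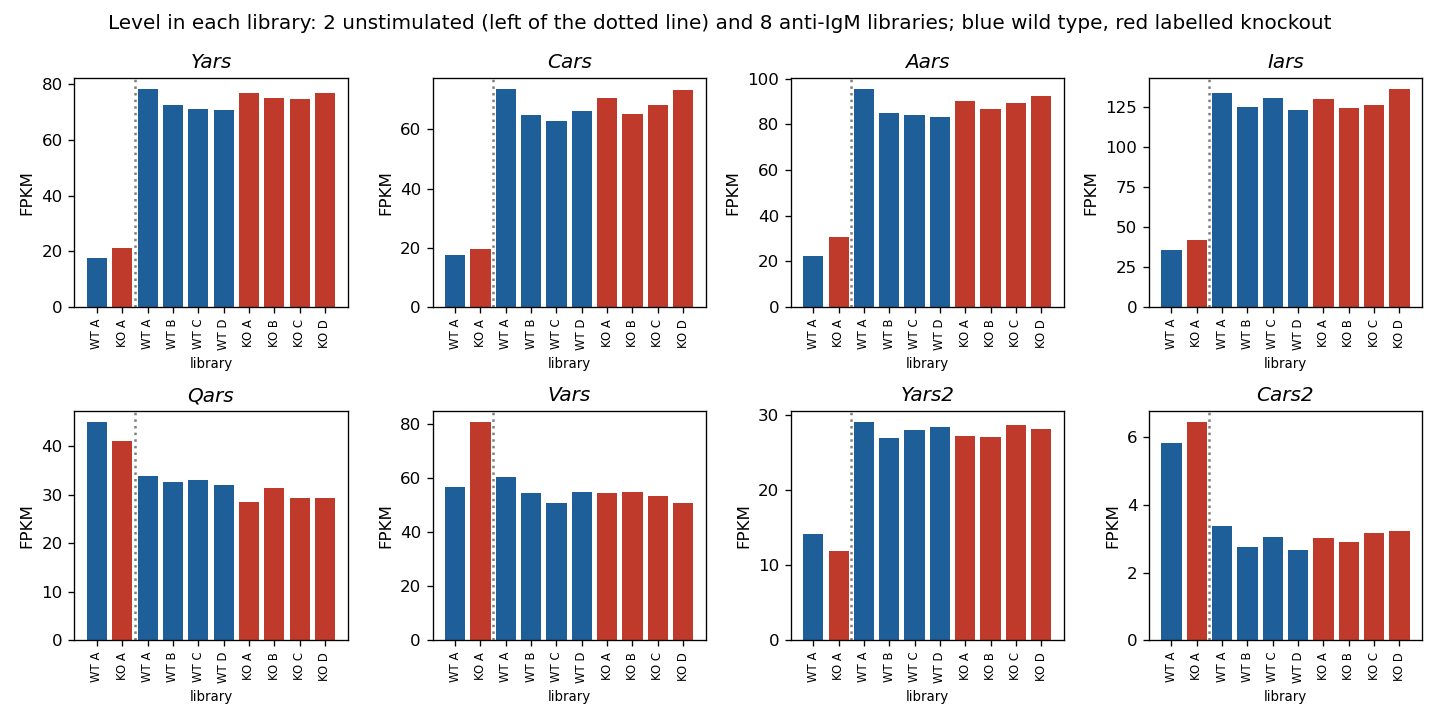
FPKM (y axis, from 0) in each of the 10 libraries (x axis) for 6 cytosolic and 2 mitochondrial members, with wild type in blue and libraries labelled knockout in red; the 2 unstimulated libraries stand left of the dotted line. Yars, Cars, Aars, Iars and Yars2 are higher in all stimulated libraries, Qars and Cars2 are lower, and Vars is high in 1 unstimulated library.

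Members of both structural classes rose, inside and outside the complex. Synthetases fall into class I and class II by the fold of their catalytic domain. Of 10 class I cytosolic enzymes 8 were higher and 2 lower, with a median change of 1.18, and of 10 class II enzymes 10 were higher, with a median of 1.09. Eprs, which charges both glutamate and proline, was counted in class I only. Of the 8 enzymes of the multisynthetase complex 7 were higher and 1 lower (median 1.06), and of the 12 outside it 11 were higher and 1 lower (median 1.33). These are descriptions, and the differences between the lists were not tested.

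The scaffold genes Aimp2 and Eef1e1 moved with the enzymes. Aimp2, which holds the complex together, stood at 26.3 and 23.7 FPKM before stimulation, then at 60.7, 64.6, 61.0 and 64.0 FPKM in stimulated wild type and 56.4, 56.9, 59.7 and 57.9 FPKM in stimulated labelled knockout, a log2 change of 1.23 ± 0.040 (SE). Eef1e1, also called Aimp3, stood at 45.6 and 36.6 FPKM before stimulation, then at 108, 99.3, 105 and 98.2 FPKM in stimulated wild type and 105, 94.5, 113 and 109 FPKM in stimulated labelled knockout, a log2 change of 1.32 ± 0.081 (SE). In both, all stimulated libraries were above both unstimulated ones. Aimp1 stood at 60.6 and 48.9 FPKM before stimulation, then at 46.2, 47.2, 47.8 and 46.9 FPKM in stimulated wild type and 42.5, 48.6, 46.4 and 47.4 FPKM in stimulated labelled knockout, a log2 change of -0.22 ± 0.064 (SE) (adjusted p = 0.0078), and this call was lost in 4 of 22 alternatives, among them the TPM (-0.06) and median-of-ratios (-0.05) scales and the fit without the unstimulated wild-type library (-0.08).

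The mitochondrial enzymes were low, apart from Lars2: without it they ranged from 4.10 to 24.0 FPKM in unstimulated wild type and from 2.44 to 27.9 FPKM in the mean of the 8 stimulated libraries, where the cytosolic enzymes ranged from 31.3 to 211.5 FPKM. Yars2, the mitochondrial tyrosine enzyme, rose most. It stood at 14.1 and 11.8 FPKM before stimulation, then at 29.0, 26.9, 28.0 and 28.4 FPKM in stimulated wild type and 27.2, 27.0, 28.6 and 28.1 FPKM in stimulated labelled knockout, and its log2 change of 1.05 ± 0.054 (SE) was the only mitochondrial rise of at least 1. Mars2, the methionine enzyme, stood at 7.11 and 8.48 FPKM before stimulation, then at 12.6, 12.6, 11.6 and 12.2 FPKM in stimulated wild type and 12.7, 12.8, 11.3 and 11.9 FPKM in stimulated labelled knockout, a log2 change of 0.59 ± 0.067 (SE). Nars2, the asparagine enzyme, stood at 4.10 and 4.23 FPKM before stimulation, then at 5.94, 6.41, 6.44 and 5.91 FPKM in stimulated wild type and 6.31, 5.92, 5.92 and 6.55 FPKM in stimulated labelled knockout, a log2 change of 0.47 ± 0.062 (SE). The stimulated libraries of all 3 lay above the unstimulated ones.

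Sars2, the serine enzyme, stood at 4.38 and 5.62 FPKM before stimulation, then at 6.67, 7.68, 6.94 and 6.90 FPKM in stimulated wild type and 6.73, 7.14, 6.13 and 6.09 FPKM in stimulated labelled knockout, a log2 change of 0.38 ± 0.093 (SE) that was not called in 2 of 22 alternatives, one of them without the unstimulated wild-type library (0.18). Aars2, the alanine enzyme, stood at 4.18 and 4.74 FPKM before stimulation, then at 5.51, 4.84, 5.04 and 6.05 FPKM in stimulated wild type and 5.47, 5.30, 5.15 and 4.98 FPKM in stimulated labelled knockout, a log2 change of 0.20 ± 0.080 (SE), not called in 6 of 22, among them without that library (0.12). Wars2, the tryptophan enzyme, stood at 4.38 and 4.98 FPKM before stimulation, then at 4.98, 5.18, 5.18 and 5.25 FPKM in stimulated wild type and 5.50, 4.81, 5.35 and 5.50 FPKM in stimulated labelled knockout, a log2 change of 0.13 ± 0.065 (SE) that missed the threshold (adjusted p = 0.084). On the TPM, median-of-ratios and quantile scales Wars2 was called higher, at 0.29, 0.28 and 0.53. The changes of Mars2, Nars2, Sars2 and Aars2 grew by over 1.5 times after quantile normalization, to 0.91, 0.86, 0.77 and 0.60.

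Cars2, the mitochondrial cysteine enzyme, had the lowest change. It stood at 5.82 and 6.44 FPKM before stimulation, then at 3.37, 2.74, 3.04 and 2.66 FPKM in stimulated wild type and 3.02, 2.90, 3.17 and 3.22 FPKM in stimulated labelled knockout. All stimulated libraries were below both unstimulated ones, and the log2 change was -0.83 ± 0.079 (SE), adjusted p = 2.03e-06. Vars2, the valine enzyme, stood at 4.49 and 4.62 FPKM before stimulation, then at 2.85, 2.41, 2.35 and 2.66 FPKM in stimulated wild type and 2.33, 2.73, 2.06 and 2.16 FPKM in stimulated labelled knockout, a log2 change of -0.69 ± 0.092 (SE). Pars2, the proline enzyme, stood at 4.42 and 4.38 FPKM before stimulation, then at 2.89, 3.29, 2.59 and 2.74 FPKM in stimulated wild type and 3.37, 2.73, 2.45 and 3.01 FPKM in stimulated labelled knockout, a log2 change of -0.48 ± 0.097 (SE) that was -0.07 and not called after quantile normalization. Hars2, the histidine enzyme, stood at 15.2 and 15.3 FPKM before stimulation, then at 11.3, 11.2, 10.2 and 11.2 FPKM in stimulated wild type and 11.1, 11.2, 10.6 and 11.8 FPKM in stimulated labelled knockout, a log2 change of -0.43 ± 0.055 (SE). Cars2, Vars2 and Hars2 were called lower on all 4 scales, with smaller changes on the quantile scale (-0.44, -0.29 and -0.25).

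Tars2 (-0.33), Fars2 (-0.31) and Iars2 (-0.21) were also called lower on the deposited scale, but not on the TPM scale (-0.18, -0.18 and -0.05), and Fars2 turned to 0.07 after quantile normalization. Ears2 (-0.13), Rars2 (0.04) and Lars2 (-0.35) were not called on the deposited scale. On the TPM, median-of-ratios and quantile scales Rars2 was called higher, at 0.20, 0.20 and 0.23, and Ears2 turned to 0.01, 0.02 and 0.25, called higher on the quantile scale only.

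Set beside its partner for the same amino acid, the cytosolic enzyme had the higher signed log2 change in 16 of 16 pairs, Eprs being used for both Ears2 and Pars2. The median difference was 1.17 on the log2 scale and the smallest, of Mars over Mars2, 0.21. In the valine pair both fell, Vars by less than Vars2. After quantile normalization it was 14 of 16, with Mars2 and Vars2 the exceptions. In 6 pairs the cytosolic member was called higher and the mitochondrial one lower on the deposited scale, and in 3, 4 and 4 on the TPM, median-of-ratios and quantile scales. The ratio of Cars to Cars2 levels was 3.04 and 3.07 in the unstimulated libraries (wild type, labelled knockout) and 22.8 ± 1.87 (SD, n = 4) and 22.6 ± 0.757 (SD, n = 4) in the stimulated ones. The ratio of Tars to Tars2 went from 2.84 and 2.74 to 9.88 ± 1.11 and 10.9 ± 0.964 (SD, n = 4 each). The ratio of Mars to Mars2 moved little, from 4.02 and 3.78 to 4.49 ± 0.0803 and 4.26 ± 0.282 (SD, n = 4 each). Except for Lars and Lars2, the cytosolic enzyme was the more abundant in all 10 libraries, in 15 of 16 pairs.

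**Figure D3:**
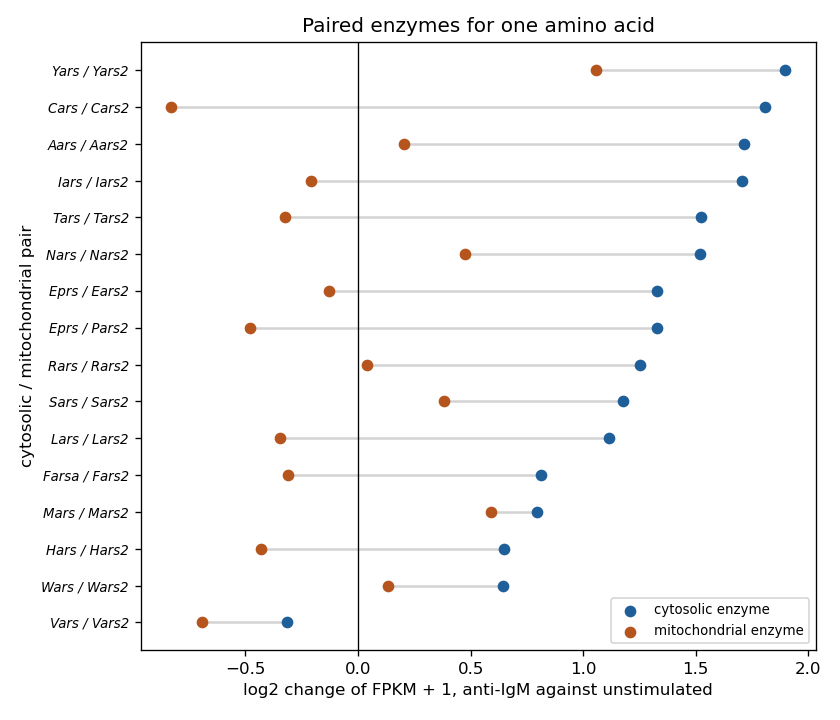
Log2 change of FPKM + 1 with anti-IgM (x axis) of the cytosolic (blue) and mitochondrial (orange) enzyme for each of 16 amino acid pairs (y axis), joined by a gray line. The cytosolic point lies to the right in 16 of 16 pairs, by 0.21 for Mars over Mars2 and by more for the rest.

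Lars2, the mitochondrial leucine enzyme (chr9:123366927-123462666 in the GENCODE annotation of GRCm38), stood apart. It was at 615 FPKM (wild type) and 831 FPKM (labelled knockout) before stimulation. After anti-IgM it was at 674, 743, 555 and 817 FPKM in wild type A to D and 581, 473, 392 and 402 FPKM in labelled knockout A to D. This is far above every other mitochondrial member, and it made up most of their sum: the 16 genes held 0.149% ± 0.0202 (SD, n = 4) of summed FPKM in the stimulated wild-type libraries and 0.107% ± 0.0168 (SD, n = 4) in those labelled knockout, and 0.0257% and 0.0251% without Lars2. Its standard deviation on the log2 scale within stimulated groups, 0.25, was the largest of the members, whose median was 0.06.

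Lars2 went up and down across libraries with 2 other rows, closely with AK155692 and less closely with Rn45s, the 45S ribosomal RNA precursor. They were picked after the values were seen, by ranking genes of at least 20 FPKM on average by their correlation with Lars2 over the 10 libraries, in which AK155692 came 1st (Pearson's r 0.996), Txndc11 2nd (0.919) and Rn45s 3rd (0.901). Rn45s was taken up because it is ribosomal RNA and Txndc11 was passed over, so the pair is a selection from the top of that ranking. These correlations are a description over 10 libraries, which share the groups. AK155692 was between 3.25 and 3.51 times the Lars2 level in all 10 libraries, and Rn45s between 2.37 and 3.41 times. Rn45s stood at 2099 and 2007 FPKM before stimulation, then at 1599, 1836, 1459 and 2371 FPKM in stimulated wild type and 1401, 1168, 997 and 995 FPKM in stimulated labelled knockout. Before stimulation Rn45s was lower in the library labelled knockout, where Lars2 was higher. Rn45s and AK155692 were lower in the libraries labelled knockout after anti-IgM, as Lars2 was (log2 difference -0.66 and -0.62, limma adjusted p = 0.028 and 0.025). Both had been picked for following Lars2 over the same libraries, so these differences and p-values are not separate support for that of Lars2. The part of ribosomal RNA in the Lars2 values was not tested.

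**Figure D4:**
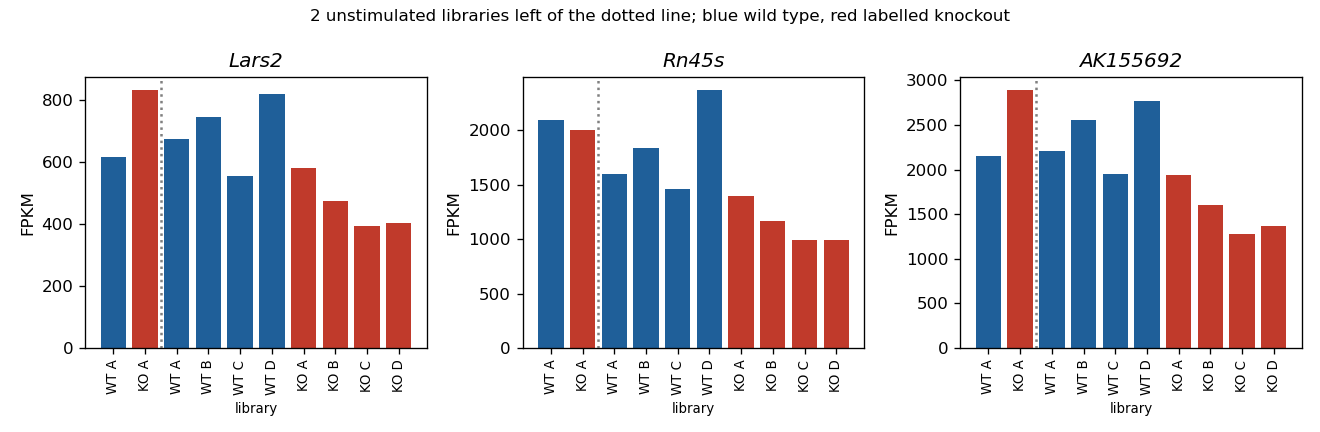
FPKM (y axes, from 0) of Lars2, Rn45s and AK155692 in each of the 10 libraries (x axis), wild type in blue and libraries labelled knockout in red, with the 2 unstimulated libraries left of the dotted line. Among stimulated libraries all 3 rows are highest in wild type D, at 817 FPKM for Lars2, and lowest in labelled knockout C and D.

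Between genotypes after anti-IgM, nearly all synthetases lay close together. Of 39 members, limma called 0 higher and 4 lower in the labelled knockout (4 against 4; 5 members had an unadjusted p under 0.05), where 3.91% of all genes tested were higher and 5.81% lower (5.26% and 3.92% by median of ratios). In 3 of 39 members (7.69%) the 2 groups did not overlap, against 15.5% of all genes tested. The cytosolic median was 0.01 and the mitochondrial one -0.02. Lck moved with genotype as well (log2 difference 0.48), and its part was not tested.

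**Figure D5:**
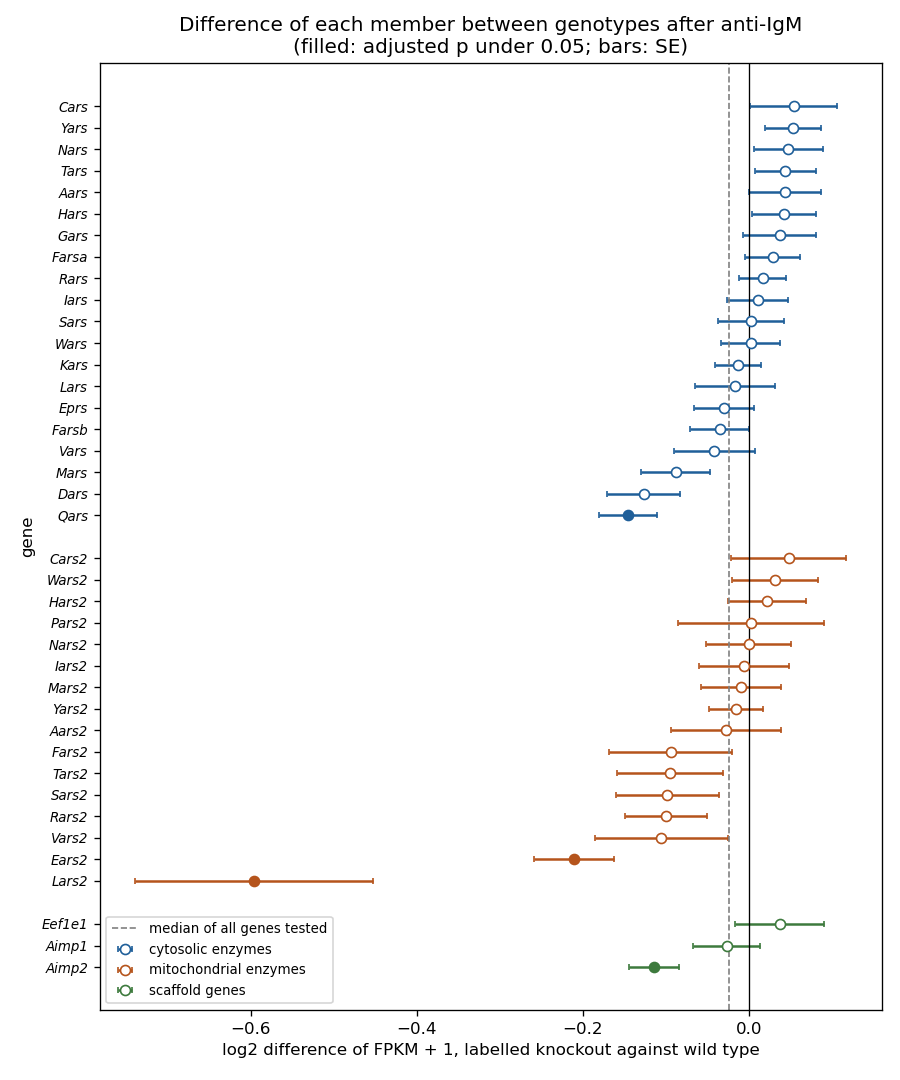
Log2 difference of FPKM + 1 between libraries labelled knockout and wild type after anti-IgM (x axis) for each member (y axis), with SE; filled points have adjusted p under 0.05. Lars2 and Ears2 lie farthest to the left, at -0.60 and -0.21, and the filled points are Qars, Ears2, Lars2 and Aimp2.

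The 4 called members were Lars2 (-0.60 ± 0.14 (SE), adjusted p = 0.030), Ears2 (-0.21 ± 0.048 (SE), adjusted p = 0.025), Qars (-0.15 ± 0.035 (SE), adjusted p = 0.031) and Aimp2 (-0.11 ± 0.030 (SE), adjusted p = 0.045). Ears2, the mitochondrial glutamate enzyme, stood at 6.28 and 6.74 FPKM before stimulation, then at 6.30, 6.51, 6.56 and 6.18 FPKM in stimulated wild type and 5.30, 5.07, 5.73 and 5.45 FPKM in stimulated labelled knockout. Its groups did not overlap, nor did those of Qars and Aimp2, and each gave p = 0.029 in a two-sided exact permutation test over the 70 labellings, the smallest that 4 against 4 allows. Any gene whose groups do not overlap gives this p, so it restates the lack of overlap and is no second support for the calls. Lars2 overlapped between groups, with wild type C below labelled knockout A (exact permutation p = 0.057). None of the 4 calls held in every alternative: they were lost in 9 (Lars2), 9 (Ears2), 11 (Qars) and 11 (Aimp2) of 19. On the median-of-ratios scale Lars2 alone was called.

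A difference in response between genotypes rests on 1 unstimulated library per genotype, assumed to vary like the stimulated groups. Of 39 members 3 were called lower (a smaller rise, or larger fall, in the labelled knockout) and 1 higher, where 14.7% of all genes tested were lower and 4.18% higher. The contrast was -0.55 ± 0.11 (SE) for Vars, -0.46 ± 0.081 (SE) for Wars, -0.40 ± 0.098 (SE) for Aars and 0.29 ± 0.081 (SE) for Farsb. Wars, the tryptophan enzyme, rose 1.87-fold in wild type and 1.34-fold in the labelled knockout, and Aars rose 3.90-fold and 2.92-fold. In Vars, Wars and Aars the unstimulated library labelled knockout was the higher of the 2, while the stimulated groups overlapped. On the TPM scale the count was 16 lower and 0 higher, with a median of all genes of -0.26, and after quantile normalization 3 lower and 6 higher. Of all genes tested 31.1% were lower and 1.61% higher on the TPM scale, and 11.9% and 8.58% after quantile normalization.

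The stimulated libraries themselves differed together. Within wild type, library A was the highest for 16 of 20 cytosolic enzymes and library D the lowest for 14. Within the labelled knockout, library D was the highest for 17 of 20 and library B the lowest for 13. Without such a count over all genes, this cannot be told from a shift of whole libraries, which was not tested. The summed cytosolic share of FPKM reached 0.320% ± 0.0127 (SD, n = 4) for wild type and 0.323% ± 0.00972 (SD, n = 4) for labelled knockout, against 0.123% and 0.147% before stimulation.

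The genes around the synthetases in the pathway were counted over lists, with log2 changes with anti-IgM for the genes named. Of 24 tested genes of the ATF4 amino acid response 21 rose, 0 fell and 3 were not called, with a median of 1.41, where 31.2% of all genes tested were higher and 47.7% lower. Slc7a5, a transporter of large neutral amino acids, rose by 2.88 and Mthfd2, a mitochondrial folate enzyme, by 2.30. Atf4 itself rose by 1.25. Of 17 tRNA modification genes 13 rose and 3 fell, led by the pseudouridine synthase Pus7 (2.00) and the methyltransferase subunit Trmt61a (1.73). Of 14 tRNA processing and export genes 10 rose and 3 fell, with Xpot, the tRNA exportin, at 1.48 and Elac2, which trims tRNA 3′ ends, at 1.44.

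Of the 4 proofreading genes, which clear wrongly charged tRNAs, 4 fell on the deposited scale and 2 on each of the other 3 scales, with Dtd1 at -0.59 and Prorsd1 at -0.54. Dtd2, at -0.25 on the deposited scale, turned to 0.17 after quantile normalization and was called on none of those 3 scales. Over the 4 scales, calls in the other lists numbered 21 to 23 higher and 0 lower for the ATF4 response, 13 higher and 1 to 3 lower for tRNA modification, 9 to 10 higher and 2 to 3 lower for tRNA processing, and 5 to 6 higher and 4 to 6 lower for mitochondrial translation factors. Of 12 mitochondrial translation factors 5 rose and 6 fell (41.7% and 50%, near the shares over all genes; median -0.12), with Mtrf1, a release factor, at -1.09 and Qrsl1, a subunit of the enzyme that makes mitochondrial glutaminyl tRNA, at -0.72. Of 6 elongation factor genes 3 rose and 0 fell (5 rose on the TPM and median-of-ratios scales, and 1 fell on the quantile scale), with Eif5a at 1.18 and Eef1d at 0.37.

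Several members share sequence or position with another gene, and whether the authors' counting used strand is not stated, so their values are uncertain to that extent. Words of 50 bases from the member's GENCODE transcripts were looked up in all other transcripts. Aimp2 shared 26.6% of its words with Eif2ak1 on the other strand, Iars2 22.0% with Rab3gap2 on the other strand, Aars 13.5% with Exosc6 on the same strand, and Iars 7.15% with the pseudogene Gm4849. Hars and Hars2 lie head to head and shared 146 words on opposite strands. Lars2 shared 0.169% at most with any other gene in this GENCODE search. Sharing with the rows Rn45s and AK155692 was not tested separately. In all, 12 members overlap a protein-coding gene on the other strand.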

How the data were processed

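RNA of 10 B cell libraries was analysed from 1 table of FPKM that the authors deposited. STAR 2.4, RSEM 1.2.14 and mm10 are named in the submitters' processing notes without a role, and which annotation or filters were used, and whether strand was, is not given in the sources used here. The members and gene lists were chosen with earlier results of these data known. Values by library are given for Nr4a1, members called between genotypes, the scaffold genes, and the 6 highest and 4 lowest changes per enzyme list. For each pathway list the 2 largest called changes are given. Some genes named outside these rules, Atf4 among them, were chosen after seeing values, and not all are marked as such.

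Log2(FPKM + 1) was tested with limma 3.58.1 in R 4.3.3 (eBayes with trend) over genes whose mean FPKM was 1 or more, with Benjamini-Hochberg adjustment over all 10225 genes; a call is an adjusted p under 0.05. The pseudocount understates changes of low genes. The fit was tested on simulated data. Some promoter sequence is not reported here. Stimulation was fitted over 10 libraries with a genotype term, genotype over 8. Alternatives changed the pseudocount (0.1, 5), filter, scale, eBayes options, letter block and single libraries. Searches of the low values for whole-read steps gave no stable relative depths, so depth is unknown and no count test was run.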

Additional observations from a re-analysis of the deposited data

Results flagged for a closer look

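In 78 groups of 4 stimulated libraries (39 members, 2 genotypes), 4 held a library far from the other 3, and chance gives about 1 in 20, or 3.9. Wild type A was high for Aars (95.3 FPKM, others 83.4 to 84.8) and for Lars (76.6 FPKM, others 70.5 to 71.3). Wild type D was low for Farsb (57.8 FPKM, others 62.2 to 63.0), and wild type C was low for Hars2 (10.2 FPKM, others 11.2 to 11.3).

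The contrast of responses between genotypes was called for Aars (-0.40), Farsb (0.29), Vars (-0.55) and Wars (-0.46), where 14.7% of all genes tested were called lower and 4.18% higher. It rests on 1 unstimulated library per genotype, which no alternative could leave out.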

How the results depend on the processing

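Of the 35 members called with anti-IgM, 26 were called in the same direction in every alternative in which they were tested, and 1 reversed in one of them: Fars2, at 0.0665 (adjusted p = 0.50; 0.0022 to 0.50 over its alternatives) after quantile normalization. The cause was not tested. The 10 members called lower became 5 on the TPM scale, 6 by median of ratios and 5 with libraries lettered A only. The cytosolic median of 1.15 was 1.07 with a pseudocount of 5, 1.32 on the TPM and the median-of-ratios scale and 1.065 after quantile normalization; the mitochondrial median was -0.0188, -0.00539 and, reversed, 0.147 on those 3 scales. Without Lars2, chosen after seeing the data, the mitochondrial share was 0.0257% (wild type) and 0.0251% (labelled knockout).

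Between genotypes the 4 members called lower became 1 with no filter, 1 by median of ratios, 2 after quantile normalization, 1 without the eBayes trend, and 0 to 2 when any 1 of the 8 libraries was left out (0 without wild type B). Over all genes, 400 were higher and 594 lower, or 537 and 400 by median of ratios and 480 and 441 after quantile normalization. For the response by genotype, 1 member higher became 0 with no filter, 2 at a mean of at least 5 FPKM, 0 on the TPM scale, 3 by median of ratios, 6 after quantile normalization, 0 without trend, and 0 to 2 when single libraries were left out, and 3 members lower became 16 on the TPM scale.

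Between stimulated wild-type and labelled knockout libraries, correlations of same-letter deviations were -0.02, 0.04, 0.01 and -0.12. Summed myeloid markers were nonetheless highest in library B of both stimulated groups (141 and 104 FPKM). Whether the unstimulated and stimulated A libraries of a genotype form a pair was not tested. With the letter as a replicate block, 24 members were higher and 8 lower with anti-IgM, and 1 was lower between genotypes.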

Other observations

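Of the members, 11 start head to head with a protein-coding gene within 1000 bases, and several of these neighbours differed from the member in direction or call. Kars rose by 1.004 while Terf2ip, whose start lies 75 bases away, was at -0.80 (limma adjusted p = 1.75e-05). Yars rose by 1.90 beside S100pbp at 0.02 (33 bases; adjusted p = 0.78). Aimp2 rose by 1.23 beside Pms2 at 0.11 (117 bases; adjusted p = 0.068), and Hars rose by 0.65 beside Hars2 at -0.43 (197 bases). Sars2 and Mrps12, a mitochondrial ribosomal protein gene, were alike at 0.38 and 0.30 (172 bases). Aimp1 and Tbck were both called lower, at -0.22 and -0.39. Ears2 was at -0.13 beside Ubfd1 at 0.17, and Rars2 at 0.04 beside Orc3 at -0.33. Fars2 was at -0.31 beside Lyrm4 at -0.10, which was not called. Wdr25, the neighbour of Wars, was not tested. Differences between neighbours were not tested. All these changes are on the deposited scale, where the median of all genes tested was -0.17. After quantile normalization Ears2 was at 0.25 and Rars2 at 0.23.

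Mars overlaps Ddit3 on the other strand by 68 bases. Ddit3, which encodes the stress factor CHOP, rose by 1.58 and Mars by 0.80; they shared 19 words of 50 bases, 0.545% of those of Mars.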
